A study of Mus musculus with 4 samples.

Results

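The comparison described here is that of the cell lines 365 and 167 in the Smarcb1-deficient state. It rests on 2 of the study's 4 arrays, those of the cultures that received the empty vector, and each gene's difference is the log2 signal in line 365 minus that in line 167. Both lines grew out of Smarcb1-deficient soft tissue tumours (the source labels add MRT) that arose in p53-null, Smarcb1-heterozygous mice of a mixed C57BL6/SV129J background, 1 tumour line each. Cultures were kept in DMEM with fetal bovine serum, infected with empty pMIG retrovirus, and their total RNA was taken 3 days later. The other 2 arrays hold the same lines infected with pMIG carrying Smarcb1. These Smarcb1 arrays were not used to form the difference, and the same subtraction on them is given beside most results. All 4 cultures share the p53-null genotype, the strain background and a retroviral infection. The labels mention no repeat cultures, no clonal selection and no age of the mice, so a difference between the lines is a difference between 1 tumour and another.

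Smarcb1 (also BAF47 or SNF5) belongs to the SWI/SNF, or BAF, chromatin remodelling complexes, which move nucleosomes at enhancers and promoters, and its loss is the defining lesion of malignant rhabdoid tumours. Such tumours are poorly differentiated, arise in kidney, brain or soft tissue, and are known for vimentin-positive cells that can carry keratin filaments. SWI/SNF complexes oppose Polycomb repression at developmental genes, so genes of lineage and of body position are a natural place to look when lines from separate tumours are compared.

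The targeted gene was checked first. The signal of Smarcb1 was 4.61 in line 167 and 6.01 in line 365 with the empty vector, against 7.83 and 9.61 with Smarcb1. Each line was thus lowest without the vector's Smarcb1, and line 365 was higher than line 167 with either vector (difference 1.40 with the empty vector and 1.78 with Smarcb1). The exons read by its probes are unknown here, so the empty vector signal does not separate remaining transcript from background. Vimentin (Vim), the intermediate filament of mesenchymal cells, was bright on all 4 arrays (13.27 to 13.53). The keratin genes Krt8 and Krt18 were dim, at 5.63 and 5.39 in line 167 and 5.86 and 5.64 in line 365 with the empty vector. The X-inactivation transcript Xist had 9.64 in line 167 and 8.77 in line 365, and the Y-linked genes Eif2s3y, Kdm5d and Uty stayed at 2.78 to 3.57 on every array.

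Signals are RMA values on a log2 scale, where a difference of 1 is 2-fold. Of 19938 genes, 13956 had a mean above the filter level of log2 4.27 and were compared. The other 5982 stayed below it. Below that level no signal above background was established, so a fold that starts or ends there is uncertain in size. With 1 array a side the empty vector difference has no test. The test reported, called the line term, is limma's two-sided test of line 365 against line 167 over all 4 arrays with the vector in the model. It averages over both vectors, takes its residual from how far the line difference changes with Smarcb1, and is adjusted by Benjamini-Hochberg over the 13956 genes (threshold 0.05). Its errors (SE) are moderated across genes. Where a gene's values are listed for a line, the empty vector comes first and Smarcb1 second. The gene lists were chosen with earlier results of these data known, so a list's share beside that of all genes is a description only.

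Line 365 was at least 2-fold above line 167 at 784 genes (5.62% of those compared) and at least 2-fold below it at 1010 (7.24%), together 12.9%. Differences of 8-fold or more were found at 93 and 76 genes, and of 32-fold or more at 18 and 18. The median difference over all genes was -0.03 and the SD 0.82. The empty vector arrays of the lines correlated at Pearson r = 0.907, taken across genes that are no independent replicates. On the Smarcb1 arrays, 617 genes (4.42%) were at least 2-fold higher and 710 (5.09%) at least 2-fold lower in line 365. Of the 784 higher genes, 748 (95.4%) also lay higher in line 365 on the Smarcb1 arrays, 410 (52.3%) by at least 2-fold, and 174 (22.2%) were within 1.5-fold there. Of the 1010 lower genes, 965 (95.5%) had the same sign, 448 (44.4%) were at least 2-fold lower, and 270 (26.7%) were within 1.5-fold. Genes past 2-fold the same way on both pairs of arrays made up 2.94% and 3.21% of all genes. The line term called 741 genes higher (5.31%) and 787 lower (5.64%) in line 365, among them 530 of the 784 and 604 of the 1010. It includes the empty vector arrays by which the 784 and 1010 were chosen, so this overlap is partly built in. The same holds for the adjusted p of any gene named for its large empty vector difference. Both line 365 arrays lay above both line 167 arrays at 26.7% of all genes and below them at 29.1%, so separation of the 4 arrays alone is common here.

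**Figure D1:**
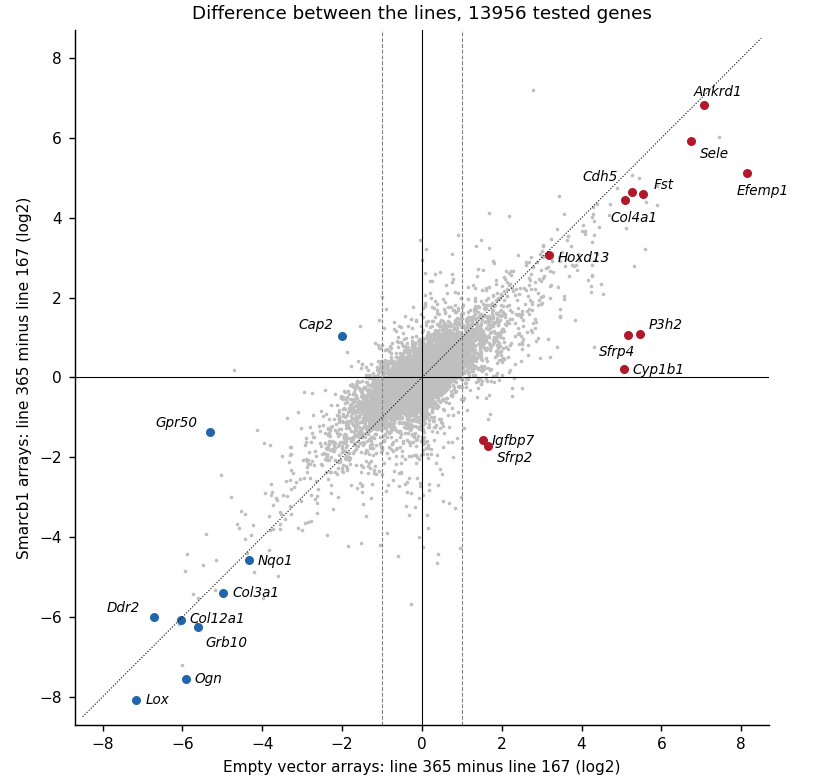
Difference between the lines for 13956 genes. The x axis gives line 365 minus line 167 on the empty vector arrays and the y axis the same on the Smarcb1 arrays, both in log2; each grey point is a gene, named genes are red (higher) or blue (lower), the dotted line marks equal differences and dashed lines mark 2-fold. Ankrd1, Sele, Lox and Ddr2 lie near the dotted line, whereas Cyp1b1 (5.06 on the empty vector arrays and 0.21 on the Smarcb1 arrays) and Gpr50 (-5.32 and -1.38) lie far from it, and Igfbp7 and Sfrp2 change sign.

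The largest difference was that of Efemp1, which encodes the elastic fibre glycoprotein fibulin 3 and read 4.20 and 6.93 in line 167 and 12.35 and 12.05 in line 365. Both line 365 arrays were bright and the line 167 empty vector array was below the filter level, so its difference of 8.14 (283-fold) is the top of the list with an uncertain base. Ankrd1, a nuclear ankyrin repeat gene widely used as a readout of the YAP-TEAD transcription factors, read 4.58 and 4.29 in line 167 and 11.66 and 11.12 in line 365. Line 167 was near the filter level for Ankrd1. Its difference of 7.08 (135-fold) was matched by 6.83 on the Smarcb1 arrays, and the line term was 6.96 ± 0.17 (SE) with limma adjusted p = 0.00223. Sele, which encodes the endothelial leukocyte adhesion molecule E-selectin, read 4.96 and 4.82 in line 167 and 11.69 and 10.74 in line 365, a difference of 6.73 (106-fold). In the other direction, Lox, the lysyl oxidase that cross-links collagen and elastin, read 10.97 and 11.93 in line 167 and 3.81 and 3.85 in line 365. Line 365 was below the filter level on both arrays, and the difference of -7.16 (143-fold) widened to -8.08 with Smarcb1. Ddr2, a receptor tyrosine kinase activated by fibrillar collagen, read 11.13 and 10.90 in line 167 and 4.41 and 4.89 in line 365, and Ptn, the heparin-binding growth factor pleiotrophin, read 11.62 and 11.77 in line 167 and 5.52 and 5.60 in line 365. No line 365 value of these genes reached a line 167 value, and the differences of Ddr2 and Ptn were 105-fold and 68.4-fold.

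Of the 15 largest differences in each direction, 13 of the higher and 14 of the lower genes passed the line term, with limma adjusted p from 0.00223 to 0.0255 and from 0.00223 to 0.00706. The line term uses the values by which these genes were ranked, and the lines also had to be apart on all arrays. These counts are therefore a description. In each direction 8 of the 15 had at least 1 array below the filter level, where the size of a fold is uncertain. The 3 genes that did not pass the line term were P3h2, Sfrp4 and Gpr50. P3h2, a collagen prolyl 3-hydroxylase gene, differed by 5.45 with the empty vector and 1.08 with Smarcb1 (limma adjusted p = 0.112). The secreted WNT antagonist gene Sfrp4 differed by 5.17 and 1.07 (0.108). Gpr50, an X-linked relative of the melatonin receptors, differed by -5.32 and -1.38 (0.0876). These 3 were far apart in the deficient state and much closer on the Smarcb1 arrays. Sfrp4 lay below the filter level on both line 167 arrays and Gpr50 on both line 365 arrays, so their folds are uncertain in size. The remaining higher genes held the activin-binding protein follistatin (Fst, 5.53), the ERK phosphatase gene Dusp4 (5.61), the tight junction protein gene F11r (5.45), the adaptor gene Bcar3 (5.27), the brain creatine kinase gene Ckb (5.12), Ctla2a (5.30), Akr1b8 (5.89), Asb4 (5.90) and Fam163a (5.58). The lower ones held the bicarbonate transporter gene Slc4a10 (-5.89), the protease gene Fam111a (-5.74), the mesodermal homeobox gene Meox2 (-5.61), the lysosomal thiol reductase gene Ifi30 (-5.41) and Pramel13 (-5.48). Akr1b8, Ctla2a and Pramel13 have close relatives in the mouse genome, and cross-hybridisation between copies was not tested.

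Promoter sequences of the 3 largest differences each way that have a single entry in the RefSeq promoter table (build GRCm38.p6) are shown because these genes carry the contrast between the lines. Each holds the 250 bases before the start, 5′ to 3′ on the gene's strand. Capitals mark GGAATG, the core recognised by TEAD factors, or TGANTCA, searched on both strands. TGANTCA is a loose form of the AP-1 core TGA(C/G)TCA that accepts any middle base. The windows are chr11:28852955-28853204 (+) for Efemp1, chr19:36119845-36120094 (-) for Ankrd1, chr1:164047984-164048233 (+) for Sele, chr1:170088945-170089194 (-) for Ddr2, chr6:36810180-36810429 (-) for Ptn and chr13:49544193-49544442 (+) for Aspn.
Efemp1: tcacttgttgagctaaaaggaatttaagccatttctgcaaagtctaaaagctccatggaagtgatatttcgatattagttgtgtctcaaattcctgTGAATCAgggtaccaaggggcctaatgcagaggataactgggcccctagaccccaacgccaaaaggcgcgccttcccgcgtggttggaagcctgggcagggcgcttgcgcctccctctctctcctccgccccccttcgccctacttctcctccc
Ankrd1: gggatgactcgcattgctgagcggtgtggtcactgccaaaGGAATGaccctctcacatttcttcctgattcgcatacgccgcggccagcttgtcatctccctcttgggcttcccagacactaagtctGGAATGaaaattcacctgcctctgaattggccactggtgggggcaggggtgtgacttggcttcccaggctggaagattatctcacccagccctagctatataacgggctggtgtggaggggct
Sele: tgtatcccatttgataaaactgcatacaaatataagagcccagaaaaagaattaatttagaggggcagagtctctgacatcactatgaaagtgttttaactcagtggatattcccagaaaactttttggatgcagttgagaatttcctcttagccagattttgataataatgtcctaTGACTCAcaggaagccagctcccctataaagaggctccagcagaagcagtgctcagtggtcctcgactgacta
Ddr2: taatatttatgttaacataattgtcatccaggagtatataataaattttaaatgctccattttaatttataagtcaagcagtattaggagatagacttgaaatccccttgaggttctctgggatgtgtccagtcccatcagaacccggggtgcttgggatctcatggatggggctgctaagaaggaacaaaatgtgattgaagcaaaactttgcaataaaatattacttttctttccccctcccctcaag
Ptn: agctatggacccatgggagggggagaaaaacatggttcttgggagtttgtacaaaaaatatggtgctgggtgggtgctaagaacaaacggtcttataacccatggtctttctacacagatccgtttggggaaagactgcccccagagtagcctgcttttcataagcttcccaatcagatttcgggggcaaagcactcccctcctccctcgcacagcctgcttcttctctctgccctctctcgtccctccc
Aspn: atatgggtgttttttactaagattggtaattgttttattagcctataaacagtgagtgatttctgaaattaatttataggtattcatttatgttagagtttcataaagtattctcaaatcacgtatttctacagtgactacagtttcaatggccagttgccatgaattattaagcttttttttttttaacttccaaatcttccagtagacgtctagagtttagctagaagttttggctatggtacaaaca
Ankrd1 held GGAATG in 2 places, with first bases at -210 and -123 from the start. Efemp1 held 1 TGANTCA at -154, with A as the middle base and so outside the stricter core, and Sele 1 at -73, with C. Neither core occurred in the Ddr2, Ptn or Aspn window. A match is a description only. Of all 32851 windows of this length, 12.6% held GGAATG at least once, 1.02% at least 2 times, and 6.75% held TGANTCA. With 1 window a gene, GGAATG stood in 11.4% of genes at least 2-fold higher, 13.1% of those lower and 10.6% of all compared genes, and TGANTCA in 5.64%, 4.2% and 4.46%.

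The mesenchymal markers that were at least 2-fold apart were all lower in line 365. Of 17 compared mesenchymal and fibroblast markers, 0 were at least 2-fold higher and 8 (47.1%) at least 2-fold lower in line 365, against 5.62% and 7.24% of all genes. The median was -0.41 (-1.07 on the Smarcb1 arrays, all genes -0.03 and 0). By the line term 7 fell short of line 167 and 1 exceeded it. The type III collagen gene Col3a1 read 11.12 and 11.65 in line 167 and 6.14 and 6.24 in line 365. The osteoblast cadherin gene Cdh11 read 10.12 and 10.75 in line 167 and 5.88 and 7.04 in line 365, and the platelet-derived growth factor receptor gene Pdgfrb read 8.95 and 9.36 in line 167 and 5.12 and 5.03 in line 365. In all 3 genes both line 365 arrays lay below both line 167 arrays, and limma adjusted p was 0.00223, 0.00303 and 0.00348. Prrx1, a homeobox factor of limb and body wall mesenchyme, was bright in both lines and 6.23-fold lower in line 365 (9.04 against 11.68), and the bHLH factor gene Twist1 was lower by 2.8-fold. The fibroblast receptor gene Pdgfra (0.27) and the hyaluronan receptor gene Cd44 (0.58) were under 2-fold apart and did not pass. S100a4 was the 1 marker above line 167 by the line term (0.90 with the empty vector, limma adjusted p = 0.0341). In RNA from a bulk culture, fewer cells of a type and less RNA per cell cannot be told apart.

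Collagen genes differed in both directions, with Col12a1, Col5a2 and Col3a1 furthest below line 167. Of 39 collagen genes, 4 (10.3%) were at least 2-fold higher and 9 (23.1%) at least 2-fold lower, against 5.62% and 7.24% of all genes. The median was -0.04 (-0.27 on the Smarcb1 arrays), with 4 and 8 past the line term. Col12a1, a fibril-associated collagen, read 10.90 and 10.75 in line 167 and 4.86 and 4.68 in line 365, and Col5a2, a chain of the type V collagen that nucleates fibrils, read 10.78 and 11.38 in line 167 and 5.13 and 5.24 in line 365. The difference was -6.05 and -5.65 with the empty vector and -6.07 and -6.14 on the Smarcb1 arrays (limma adjusted p = 0.00223 for both). The type VI collagen genes Col6a1 (-3.73) and Col6a2 (-2.92), Col16a1 (-1.15) and Col5a1 (-1.07) also passed as lower. Besides type IV genes, Col8a1 (4.25), a short-chain collagen gene of vessel walls, and Col14a1 (0.98) passed as higher. The type I collagen genes were closer in the deficient state, at -1.53 for Col1a1 and -1.27 for Col1a2, than on the Smarcb1 arrays (-4.15 and -3.01). Col1a2 passed (limma adjusted p = 0.0491) and Col1a1 did not (0.0559). Among 19 collagen processing genes 2 (10.5%) were at least 2-fold higher and 3 (15.8%) lower (median -0.18 and -0.64). Lox and P4ha3, a prolyl 4-hydroxylase subunit gene (8.66 in line 167 and 4.04 in line 365), were lower, and P3h2 was the large exception. Of the small leucine-rich proteoglycan genes, Aspn read 9.11 and 10.31 in line 167 and 3.10 and 3.10 in line 365 and Ogn read 8.85 and 10.24 in line 167 and 2.93 and 2.69 in line 365. Both were below the filter level throughout line 365. Over the 45 matrix glycoprotein and proteoglycan genes 6 (13.3%) were at least 2-fold higher and 7 (15.6%) lower. The median was 0.12 in the deficient state and -0.72 on the Smarcb1 arrays. Efemp1 was the 1 member that rose above line 167 by the line term (limma adjusted p = 0.0123), and 6 members fell below it.

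Among basement membrane genes, more were higher than lower in line 365. Of 26 compared, 8 (30.8%) were at least 2-fold higher and 3 (11.5%) lower in line 365, against 5.62% and 7.24% of all genes. The median was 0.19 (-0.02 on the Smarcb1 arrays), and the line term called 6 higher and 1 lower. The type IV collagen genes Col4a1 and Col4a2, whose chains assemble into 1 network, read 5.42 and 5.89 in line 167 and 10.51 and 10.34 in line 365, and 5.83 and 5.98 in line 167 and 9.87 and 9.81 in line 365. Line 365 was above line 167 on every array, 33.9-fold and 16.4-fold with the empty vector, and limma adjusted p was 0.00296 and 0.0025. Ntn4, a netrin of basement membranes, read 4.56 and 4.93 in line 167 and 8.80 and 7.08 in line 365 (limma adjusted p = 0.03). The nidogen gene Nid1 (2.50), the laminin-binding protein gene Tinagl1 (2.18) and the laminin chain gene Lamb1 (1.16) passed as higher, and another laminin chain gene, Lamb2 (-1.42), passed as lower. Hspg2, which encodes the heparan sulphate proteoglycan perlecan, read 9.28 and 9.33 in line 167 and 6.17 and 8.47 in line 365. It was 8.67-fold lower in line 365 in the deficient state, and the difference was -0.87 on the Smarcb1 arrays (limma adjusted p = 0.0854).

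**Figure D2:**
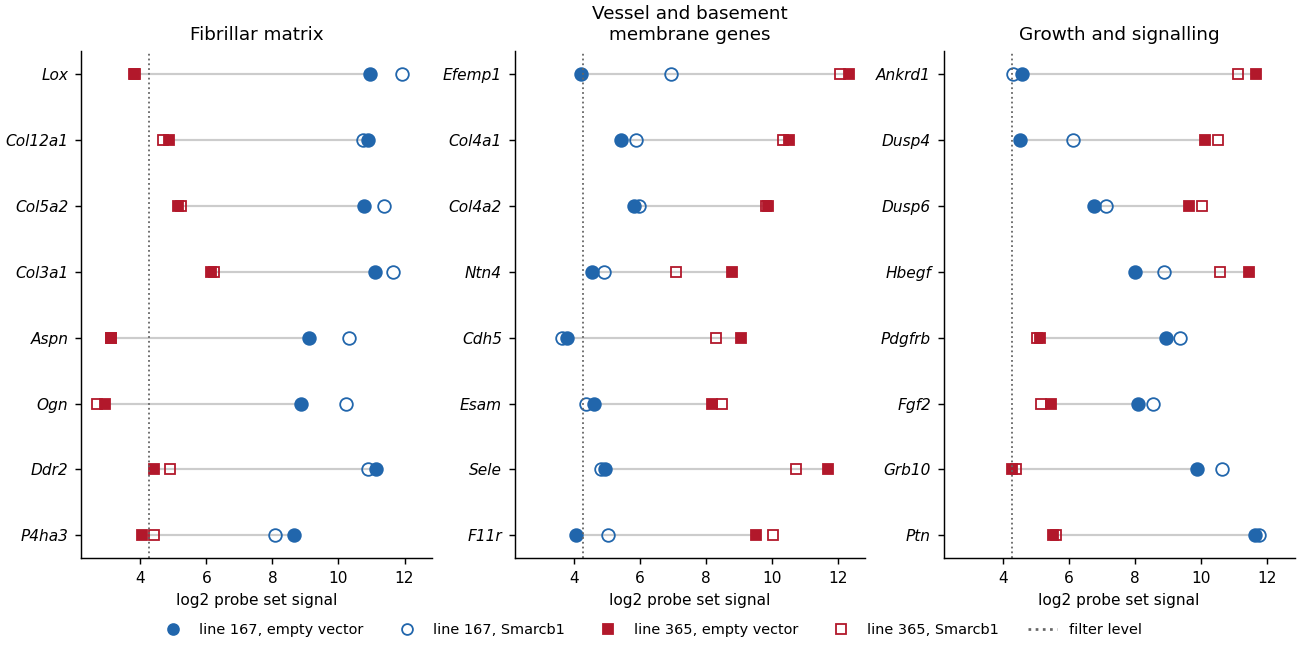
Signals of 24 genes on all 4 arrays. The x axis is the log2 probe set signal; blue circles are line 167 and red squares line 365, filled with the empty vector and open with Smarcb1; grey bars join the empty vector pair and the dotted line is the filter level of 4.27. In each of the 24 genes both arrays of 1 line lie beyond both arrays of the other. Many of them were picked among the largest differences with the lines apart, so this is partly set by the choice. Over all compared genes, line 365 lay above in this way at 26.7% and below at 29.1%. Genes such as Aspn, Ogn and Lox sit below the filter level in line 365.

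Several of the largest differences were shared by neighbouring genes. Of 13902 pairs of consecutive compared genes in the RefSeq order, 10 were at least 8-fold apart in the same direction at both members. Over all 13956 compared genes, 93 were at least 8-fold higher and 76 lower. Some pairs overlap, as Aspn and Rmdn2 each pair with both neighbours. The pairs were sought after the values were seen and get no test. Col3a1 and Col5a2 are direct neighbours on chromosome 1 and were lower by -4.98 and -5.65. Aspn and Ogn lie in a cluster of proteoglycan genes on chromosome 13, where Cenpp was lower too (-3.52). Col4a1 and Col4a2 stand head to head on chromosome 8, with starts 21 bases apart on opposite strands, and were higher together. The imprinted neighbours Grb10 and Ddc on chromosome 11 read 9.89 and 10.63 in line 167 and 4.28 and 4.39 in line 365, and 10.50 and 9.85 in line 167 and 4.57 and 5.01 in line 365, both far lower in line 365. Rmdn2, between Cdc42ep3 and Cyp1b1 on chromosome 17, was higher by 3.74 and its neighbours by 4.54 and 5.06. The remaining pairs were Ptn with Dgki (lower), and Chrna1 with Chn1 and Cryab with Hspb2 (higher). All 10 pairs had the same direction on the Smarcb1 arrays, where Cyp1b1, which activates many aromatic compounds, was the closest at 0.21.

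Of the endothelial markers, Cdh5 and Esam stood far higher in line 365. Of 13 endothelial markers 8 were compared, 2 were at least 2-fold higher and 0 lower, and the same 2 passed the line term. Across all compared genes 5.62% were at least 2-fold higher and 7.24% lower, and the line term called 5.31% and 5.64%. A share of only 8 genes rests on few members. Cdh5, the cadherin of endothelial junctions, read 3.78 and 3.64 in line 167 and 9.06 and 8.29 in line 365. Esam, an adhesion molecule of endothelial cells and platelets, read 4.60 and 4.38 in line 167 and 8.17 and 8.48 in line 365. Limma adjusted p was 0.00296 and 0.00384, and the line 167 arrays were below or near the filter level. The other 11 markers of the list were under 2-fold apart. Pecam1 read 3.95 and 4.01 in line 167 and 4.35 and 4.30 in line 365, Tek, Emcn, Sox17 and Robo4 had means below the filter level, and Kdr and Tie1 stood between 4.19 and 4.80 on all arrays. Flt1, a receptor for vascular endothelial growth factor, read 7.71 and 7.42 in line 167 and 6.79 and 6.88 in line 365, and Egfl7, a secreted factor of vessels, read 6.89 and 6.87 in line 167 and 6.29 and 6.43 in line 365; both were above the filter level in both lines, and neither passed (limma adjusted p = 0.0863 and 0.147). Outside that list, the protein C receptor gene Procr (6.12 and 6.07 in line 167 and 11.02 and 10.81 in line 365) and the sphingosine-1-phosphate receptor gene S1pr1 (7.48 and 7.71 in line 167 and 11.14 and 11.25 in line 365) were among the 5 higher genes with the smallest p. They were 29.8-fold and 12.7-fold higher with the empty vector.

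Adhesion genes differed in both directions. Of 21 integrin genes 2 (9.52%) were at least 2-fold higher and 3 (14.3%) lower, against 5.62% and 7.24% of all genes. Itga6, a laminin receptor subunit, read 5.53 and 6.04 in line 167 and 9.80 and 10.06 in line 365, and Itga11, a collagen receptor subunit, read 8.21 and 7.60 in line 167 and 4.37 and 4.14 in line 365. Limma adjusted p was 0.0025 and 0.00368. Itga3, another laminin receptor subunit, was higher (1.33) and passed. Itgb5, a vitronectin receptor subunit, was lower (-1.55) and passed, and the platelet subunit gene Itga2b was lower (-1.41) without passing (limma adjusted p = 0.0938). Of 41 other adhesion genes 6 (14.6%) were at least 2-fold higher and 7 (17.1%) lower, with 6 and 10 past the line term. F11r read 4.07 and 5.03 in line 167 and 9.51 and 10.04 in line 365, and its relatives Jam2 (1.60) and Jam3 (-1.22) passed as higher and lower. The latrophilin gene Adgrl2 was lower by 18.5-fold; all 8 of its probe sets were lower, between -4.84 and -1.07. The neural cell adhesion molecule gene Ncam1 (8.97 against 6.45) and the glypican genes Gpc3, Gpc4 and Gpc6 (-0.76, -1.59 and -0.96) passed as lower. Vcam1 (1.09) and syndecan 4 (Sdc4, 2.06) passed as higher. Of 53 guidance genes 8 (15.1%) were at least 2-fold higher and 9 (17.0%) lower. The repulsive ligand gene Sema3a read 7.60 and 6.55 in line 167 and 11.02 and 11.10 in line 365, and Nrp2, a semaphorin co-receptor gene, read 9.29 and 9.41 in line 167 and 5.36 and 6.51 in line 365. Robo1, a receptor for Slit proteins, was lower by 5.66-fold. Among 43 matrix proteases and inhibitors 6 (14.0%) were at least 2-fold higher and 7 (16.3%) lower, and the line term called 4 higher and 7 lower. The urokinase receptor gene Plaur (2.93), the tissue plasminogen activator gene Plat (3.46) and the gelatinase gene Mmp2 (2.35) passed as higher. Serpinf1, which encodes the secreted serpin PEDF (-1.51), the lysosomal protease gene Ctsl (-1.16), the membrane protease inhibitor gene Reck (-1.20) and the membrane-anchored protease gene Mmp14 (-0.79) were among those that passed as lower.

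Among markers of other lineages, single genes stood apart. Of 17 skeletal muscle markers 3 (17.6%) were at least 2-fold higher and 0 lower, against 5.62% and 7.24% of all genes. These were the acetylcholine receptor gene Chrna1 (3.90 and 3.94 in line 167 and 7.84 and 6.89 in line 365), the slow troponin gene Tnni1 (4.94 and 5.34 in line 167 and 8.33 and 9.06 in line 365) and the myogenic progenitor factor gene Pax3 (4.97 and 4.86 in line 167 and 7.03 and 7.38 in line 365). All 3 passed as higher. Smooth muscle and contractile genes had 2 (14.3%) at least 2-fold higher and 4 (28.6%) lower of 14, and 12 of 14 were lower in line 365 on the Smarcb1 arrays. The tropomyosin gene Tpm2 (-2.78), calponin (Cnn1, -2.65), the myosin light chain gene Myl9 (-2.23) and Tpm1 (-1.86) were lower and passed. The smooth muscle actin gene Actg2 was 1 of the 2 higher genes (1.05, and -1.27 on the Smarcb1 arrays). Its line 167 empty vector value of 3.73 lay below the filter level. The line term called 1 member of the list higher and 4 lower. Of 20 neuronal markers 4 were higher and 3 lower. The zinc finger factor gene Gata2, also a factor of endothelial and blood cells, read 5.37 and 5.79 in line 167 and 9.65 and 9.90 in line 365, and the neurofilament gene Nefl read 10.68 and 7.26 in line 167 and 7.72 and 6.89 in line 365. Nefl separated the lines in the deficient state (-2.96) and hardly with Smarcb1 (-0.37, limma adjusted p = 0.153). Epithelial markers (12 compared) and neural crest, glial and melanocyte markers (12) had 0 genes at least 2-fold apart, and in the first list Krt19 passed as higher (limma adjusted p = 0.0471). Of the macrophage and leukocyte markers 3 were compared, 0 were 2-fold apart, and the leukocyte gene Ptprc stayed at 3.65 to 4.06. The cartilage factor gene Sox9 was lower by 2.35-fold and passed (0.0284).

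**Figure D3:**
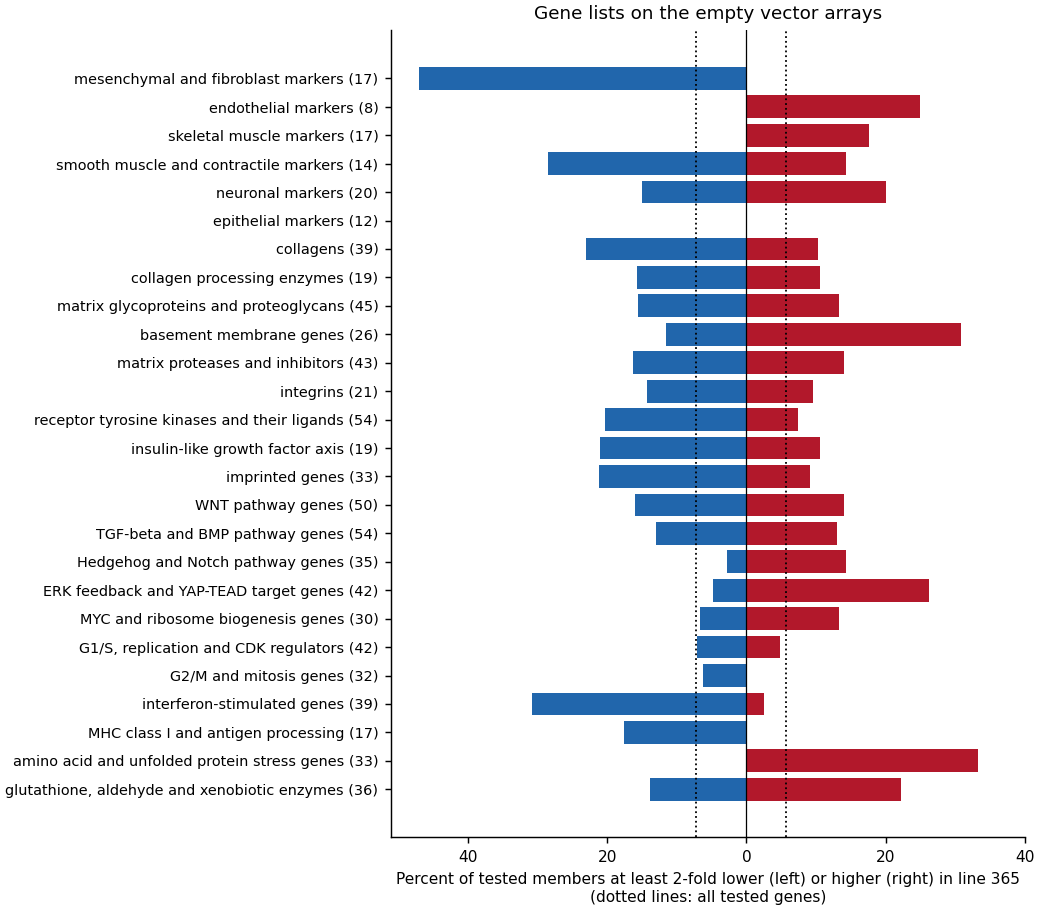
Gene lists on the empty vector arrays. Bars give the percent of a list's compared members (number in brackets) that were at least 2-fold higher (red, right) or lower (blue, left) in line 365, and dotted lines mark the same for all 13956 genes (5.62% and 7.24%). Of the lists drawn, which leave out the HOX clusters, mesenchymal markers (8 of 17) reach farthest to the left and stress genes (11 of 33) farthest to the right.

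HOX factors set position along the body and limb axes, and their order on the chromosome follows their order along the body. Of 33 compared HOX genes 5 (15.2%) were at least 2-fold higher and 10 (30.3%) lower in line 365, against 5.62% and 7.24% of all genes. The line term called the same numbers, 5 and 10. In the A cluster 7 of 9 genes were at least 2-fold lower and passed (median -1.28, and -1.6 on the Smarcb1 arrays). Hoxa5 read 9.64 and 9.48 in line 167 and 7.55 and 7.36 in line 365, and Hoxa2 and Hoxa9 were 3.68-fold and 3.23-fold lower. In the B cluster 8 of 9 were lower, 2 of them at least 2-fold, Hoxb6 (-1.27) and Hoxb2 (-1.03). The C cluster split between Hoxc8 (1.65) and Hoxc6 (1.04), which were higher, and Hoxc10, which read 8.97 and 8.42 in line 167 and 6.84 and 6.01 in line 365. In the D cluster 3 of 8 were at least 2-fold higher and 0 lower (median 0.47, and 0.88 on the Smarcb1 arrays). Hoxd13, the terminal gene of that cluster and a factor of distal limb and genital mesenchyme, read 4.90 and 4.95 in line 167 and 8.08 and 8.03 in line 365. Both line 167 arrays were near 4.9 and both line 365 arrays near 8, with limma adjusted p = 0.00408.

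**Figure D4:**
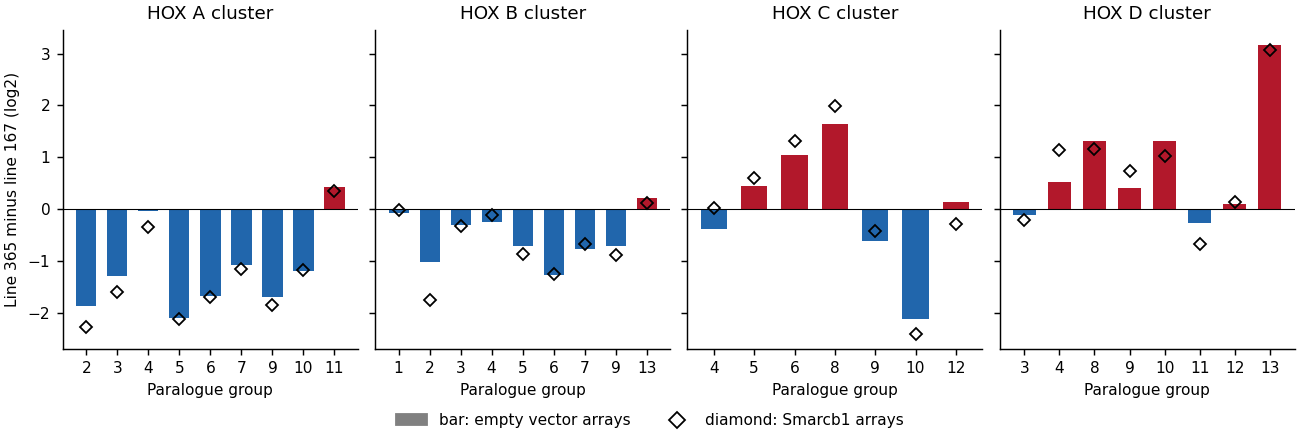
HOX genes by cluster. The y axis is line 365 minus line 167 in log2 and the x axis the paralogue group; bars are the empty vector arrays (red higher, blue lower) and diamonds the Smarcb1 arrays. Bars of the A and B clusters lie mostly below 0, and Hoxd13 stands out at 3.17 with a diamond at 3.08.

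Other patterning factors differed in both directions. Of 42 limb, axis and mesoderm factors 8 were at least 2-fold higher and 4 (9.52%) lower, with 8 and 3 past the line term. Among all compared genes 5.62% were at least 2-fold higher and 7.24% lower, and 5.31% and 5.64% passed the line term. En1, a factor of ventral limb ectoderm and dermis, read 8.22 and 7.29 in line 167 and 5.34 and 5.05 in line 365. The stromal forkhead gene Foxd1 read 4.95 and 4.89 in line 167 and 7.54 and 6.74 in line 365, and the genes of the mesoderm factors Gata4 (3.4-fold) and Osr1 (3.07-fold) were higher as well. Meox2, a factor of somites and limb muscle, read 9.93 and 9.69 in line 167 and 4.32 and 4.17 in line 365 and was among the 5 lower genes with the smallest p.

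Among growth factor receptors and their ligands, more were lower than higher in line 365. Of 54 receptor tyrosine kinase genes and ligands 4 (7.41%) were at least 2-fold higher and 11 (20.4%) lower in line 365. The shares over all genes were 5.62% and 7.24%. The median was -0.06 (-0.35 on the Smarcb1 arrays), with 4 and 10 past the line term. Beside Ddr2 and Pdgfrb, the fibroblast growth factor gene Fgf2 was lower and read 8.08 and 8.53 in line 167 and 5.45 and 5.13 in line 365. Hbegf, an EGF receptor ligand, was the large exception and read 8.01 and 8.87 in line 167 and 11.46 and 10.57 in line 365 (limma adjusted p = 0.0307). In the insulin-like growth factor axis 2 of 19 genes (10.5%) were at least 2-fold higher and 4 (21.1%) lower. Grb10, an adaptor that dampens insulin and IGF1 receptor signalling, was 48.8-fold lower, and its relative Grb14 was 4.93-fold lower. The growth factor gene Igf2 was at 6.63 in line 167 and 5.68 in line 365 (-0.94) without passing (limma adjusted p = 0.0631), and the mRNA-binding protein gene Igf2bp1 was 3.43-fold higher. Among 33 imprinted genes 3 (9.09%) were at least 2-fold higher and 7 (21.2%) lower, with 6 and 7 past the line term. Asb4 read 3.83 and 4.31 in line 167 and 9.73 and 8.65 in line 365, the non-coding RNA Meg3 read 5.03 and 4.93 in line 167 and 7.72 and 7.25 in line 365, and its neighbour Dlk1, which is expressed from the other parental copy, was lower (-1.72). Igf2r (-1.25) passed as lower and Mest (1.36) as higher.

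Secreted regulators of WNT, TGF-beta and Hedgehog signalling differed in both directions. For the lists that follow, the shares over all compared genes were 5.62% at least 2-fold higher and 7.24% lower. The line term called 5.31% of all genes higher and 5.64% lower. Of 50 WNT genes 7 were at least 2-fold higher and 8 lower, with 3 and 9 past the line term. The antagonist gene Sfrp1 read 4.34 and 5.52 in line 167 and 7.93 and 8.32 in line 365, the WNT modulator gene Dkk2 read 5.17 and 5.23 in line 167 and 8.13 and 8.31 in line 365, and the agonist gene Rspo3 read 8.48 and 8.69 in line 167 and 5.19 and 5.27 in line 365. Line 365 was the higher line for Sfrp1 and Dkk2 and the lower one for Rspo3, and all 3 passed. Of 54 TGF-beta and BMP genes 7 were higher and 7 lower. Follistatin read 5.29 and 6.17 in line 167 and 10.82 and 10.76 in line 365, and its relative Fstl1 was lower (-2.67). The ligand genes Tgfb2 (2.95) and Bmp6 (2.66) were higher with the empty vector and much closer on the Smarcb1 arrays (0.49 and 0.82), and neither passed (limma adjusted p = 0.135 and 0.0827). Hedgehog and Notch genes had 5 of 35 (14.3%) at least 2-fold higher and 1 (2.86%) lower. The ligand gene Dhh (3.46), the Notch target genes Nrarp (3.44) and Hes1 (2.82) passed as higher, and the Notch ligand gene Jag1 (2.50) did not (limma adjusted p = 0.0722). The Hedgehog target Gli1 was low in both lines (5.13 and 5.36).

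Among feedback genes of ERK signalling and targets of YAP-TEAD, more were higher than lower in line 365. Of 42 compared, 11 were at least 2-fold higher and 2 lower (26.2% against 5.62% of all genes for the first). The list pools the ERK and YAP-TEAD genes, so this share is not that of either set alone. The median was 0.50 in the deficient state and 0.14 on the Smarcb1 arrays. The line term called 10 higher and 1 lower. The phosphatase genes Dusp4 and Dusp6, which are induced by ERK and switch it off, read 4.51 and 6.12 in line 167 and 10.12 and 10.52 in line 365, and 6.74 and 7.13 in line 167 and 9.64 and 10.02 in line 365. The ERK inhibitor genes Spry2 (2.69) and Spry4 (1.92) and the AP-1 subunit gene Fosl1 (2.27) passed as higher too. On the YAP-TEAD side Ankrd1, Crim1 (7.04 and 7.80 in line 167 and 11.31 and 11.19 in line 365) and the coactivator gene Wwtr1 (1.52) were higher, and Tead3, 1 of the TEAD factors, was lower (-1.10).

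Among G2/M and G1/S genes, 2-fold differences were no more frequent than the shares over all genes (5.62% higher and 7.24% lower). Of 32 G2/M genes 0 were at least 2-fold higher and 2 lower (6.25%), and 0 passed limma's line term in either direction (8 at an unadjusted p below 0.05). Their median was -0.18 in the deficient state, where 24 were lower in line 365. On the Smarcb1 arrays it was 0.19, where 21 were higher, and the line term averages over this change of sign. Of 42 G1/S and CDK genes 2 were higher (4.76%) and 3 lower (7.14%). The kinase gene Cdk6 read 8.40 and 8.89 in line 167 and 9.91 and 9.98 in line 365, and the ribonucleotide reductase gene Rrm2 was 3.27-fold higher. Cyclin D1 (Ccnd1) was 1.41-fold higher and passed (limma adjusted p = 0.0396), and cyclin D2 (Ccnd2) was bright in both lines (12.55 and 12.58). The CDK inhibitor gene Cdkn2b read 9.33 and 9.00 in line 167 and 7.75 and 8.04 in line 365 and passed as lower (0.0301). Its neighbour Cdkn2a, which encodes p16 and p19Arf, was bright in both lines (10.26 and 9.73) and did not pass (0.105). Of 30 MYC and ribosome biogenesis genes 4 (13.3%) were at least 2-fold higher and 2 (6.67%) lower. The median was 0.54 in the deficient state and 0.22 on the Smarcb1 arrays, and both line 365 arrays lay above both line 167 arrays at 21 of the 30 (26.7% of all genes). The ornithine decarboxylase gene Odc1 (1.40) and the ribosome assembly gene Utp20 (1.82) passed as higher, and the MYC antagonist gene Mxd4 (-1.95) as lower. Myc itself read 9.58 and 9.78 in line 167 and 10.10 and 9.21 in line 365, with the lines in opposite order on the 2 pairs of arrays (limma adjusted p = 0.968).

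Among interferon-stimulated and antigen presentation genes, more were lower than higher in line 365. Of 39 interferon-stimulated genes 1 was at least 2-fold higher and 12 lower (30.8% against 7.24% of all genes), with a median of -0.64 in the deficient state and -0.22 on the Smarcb1 arrays, and the line term called 1 higher and 7 lower. The chemokine gene Ccl5 read 8.65 and 8.40 in line 167 and 5.85 and 6.22 in line 365, and Ifit1, which binds foreign RNA, read 7.98 and 6.32 in line 167 and 5.63 and 4.60 in line 365. Ifit3 (-1.23), Oasl2 (-1.27) and the transcription factor gene Irf1 (-0.80) also passed as lower, and Bst2, which tethers budding virus, as higher (0.63). Cxcl10 was the gene more than 2-fold higher. It read 6.25 and 6.38 in line 167 and 9.45 and 6.90 in line 365, so 1 array, line 365 with the empty vector, stood apart (limma adjusted p = 0.134). Of 17 MHC class I and processing genes 0 were at least 2-fold higher and 3 (17.6%) lower, with a median of -0.47 (-0.20 on the Smarcb1 arrays). The peptide loading gene Tapbp read 10.90 and 10.27 in line 167 and 9.30 and 8.83 in line 365 and passed (limma adjusted p = 0.00766), as did the proteasome activator gene Psme1 (-1.12). Of 36 chemokine, cytokine and receptor genes 6 (16.7%) were at least 2-fold higher and 6 (16.7%) lower, against 5.62% and 7.24% of all genes. The oncostatin M receptor gene Osmr read 7.66 and 10.16 in line 167 and 4.05 and 5.19 in line 365, and the neutrophil chemokine gene Cxcl2 was 3.9-fold higher.

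Among amino acid supply and stress genes, more were higher than lower in line 365. Of 33 compared, 11 (33.3%) were at least 2-fold higher and 0 lower, against 5.62% and 7.24% of all genes. The median was 0.34 (0.41 on the Smarcb1 arrays), and the line term called 14 higher and 1 lower. The cystine transporter gene Slc7a11 read 6.21 and 6.18 in line 167 and 7.96 and 7.79 in line 365, and the mitochondrial serine hydroxymethyltransferase gene Shmt2 read 7.87 and 7.55 in line 167 and 9.52 and 9.05 in line 365. The stress transcription factor gene Atf4 (1.14), the serine synthesis genes Phgdh (1.18), Psat1 (0.89) and Psph (1.19), the folate enzyme gene Mthfd2 (1.23) and the asparagine synthetase gene Asns (0.98) also passed as higher. Ddit4, a stress-induced inhibitor of mTORC1, passed as lower (-0.96). Xenobiotic and glutathione genes had 8 of 36 (22.2%) at least 2-fold higher and 5 (13.9%) lower. Nqo1, a quinone reductase, read 8.44 and 8.21 in line 167 and 4.10 and 3.64 in line 365, and the aldo-keto reductase gene Akr1b8 read 4.34 and 5.21 in line 167 and 10.23 and 10.02 in line 365. Both are described targets of the oxidative stress factor NRF2, and their differences had opposite signs. The retinaldehyde dehydrogenase gene Aldh1a3 was 19.2-fold higher. Among 29 hypoxia and glycolysis genes 1 (3.45%) was at least 2-fold higher and 5 (17.2%) lower. The oxygen sensor gene Egln3 read 4.86 and 4.75 in line 167 and 9.14 and 9.01 in line 365, and the enolase gene Eno2 was 4.76-fold lower. Cyba, a subunit gene of the superoxide-producing NADPH oxidase, read 10.80 and 10.34 in line 167 and 5.61 and 5.03 in line 365 and was among the 5 lower genes with the smallest p.

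Subunits of chromatin complexes were 2-fold apart in shares near those of all genes (5.62% and 7.24%). Of 30 SWI/SNF genes 2 (6.67%) were at least 2-fold higher and 3 (10.0%) lower, and 3 passed the line term. The ATPase gene Smarca2 read 8.14 and 8.35 in line 167 and 5.93 and 6.54 in line 365 (limma adjusted p = 0.0106), Actl6a, which encodes an actin-like subunit, was higher (1.14), and Smarcb1 was the third. Of 30 Polycomb genes 2 (6.67%) were higher and 1 (3.33%) lower, with Cbx7 at 2.03 in the deficient state and 0.48 on the Smarcb1 arrays, and Ezh2, the methyltransferase gene, at 10.12 and 10.08. Both lines are p53 null, and of 22 p53 target genes 2 (9.09%) were at least 2-fold higher and 3 (13.6%) lower. Phlda3 was 5.5-fold higher, and Eda2r (7.55-fold) and Trp53inp1 (5.36-fold) were lower. The oncofetal gene Hmga2, a stem cell chromatin factor, read 7.36 and 8.09 in line 167 and 9.57 and 10.44 in line 365.

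Some differences were organised by chromosome. Genes on the X chromosome had a median of -0.30 (-0.16 on the Smarcb1 arrays), and 82 of 428 (19.2%) were at least 2-fold lower in line 365 while 16 (3.74%) were at least 2-fold higher. Over all genes 7.24% were at least 2-fold lower and 5.62% higher, and the line term called 5.64% lower and 5.31% higher. The sign was negative for 71.7% of X genes on the empty vector arrays and for 64.0% on the Smarcb1 arrays. Negative shares of single autosomes ran from 33.5% to 61.1% and from 26.8% to 57.8%. On the autosomes medians ran from -0.11 to 0.19. Chromosomes 10, 3 and 12 had the largest shares of genes at least 2-fold higher (between 10.5% and 11.1%). Windows of 50 consecutive genes with a median of at least 0.5 in either direction merged into 3 runs, with 261 genes in all. On chromosome 10 a run of 137 genes from Nuak1 to Tsfm had a median of 0.57 (0.60 on the Smarcb1 arrays). In it 110 genes (80.3%) were higher in line 365 on each pair of arrays, 32 (23.4%) were at least 2-fold higher, and 45 passed the line term; Ntn4, Dusp6 and the endoplasmic reticulum gene Tmcc3 (2.66) were its largest. On chromosome 15 a run of 55 genes from Selenop to Marchf6 had a median of -0.54 (-0.39), with 43 genes (78.2%) lower on the empty vector arrays and 45 (81.8%) on the Smarcb1 arrays, and 15 (27.3%) at least 2-fold lower, led by the pyrophosphate transporter gene Ank (-3.80), Osmr (-3.61) and the adipokine gene C1qtnf3 (-3.02). On the X chromosome 69 genes from Bcorl1 to Renbp had a median of -0.45 (-0.18), with 54 (78.3%) lower on the empty vector arrays and 45 (65.2%) on the Smarcb1 arrays, and 15 (21.7%) at least 2-fold lower, led by Gpr50, Prrg3 (-4.53) and Arhgef6 (-3.67). The runs were found on the empty vector arrays, so their medians there are set by the choice. DNA copy number was not measured, and its part in these runs was not tested.

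**Figure D5:**
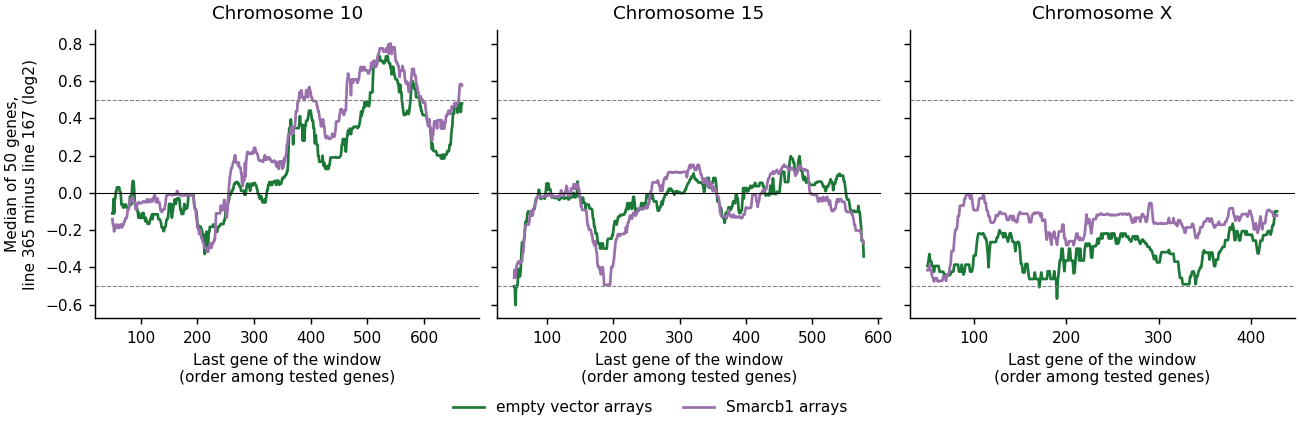
Running median along 3 chromosomes. The y axis is the median of line 365 minus line 167 (log2) over 50 consecutive compared genes, and the x axis the place of the window's last gene in gene order; green lines are the empty vector arrays, purple lines the Smarcb1 arrays, and dashed lines mark 0.5. On chromosome 10 the green and purple lines both exceed 0.5 over a stretch in the later part. After it the green line stays below 0.5, and the purple line ends at 0.58. On the empty vector arrays chromosome 15 starts below -0.5 and the X chromosome stays below 0.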

How the data were processed

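Per the submitters' processing notes, the authors ran RMA in Affymetrix Expression Console, and the deposited signals are on a log2 scale. The sources used here give no version, setting or genome build. RMA corrects background, quantile-normalizes the arrays and combines probes, so a difference in total RNA per cell cannot be seen. Median signals were 5.03 to 5.07 over 35556 probe sets. In the platform annotation 21789 probe sets have 1 symbol, 1621 have several, and 12146 stay unnamed; of several probe sets for a gene the one with the highest mean was used. Genes below the 30th percentile of means were left out. The line term came from limma 3.58.1 under R 4.3.3 (lmFit, eBayes with trend; 1 residual and 3.75 prior degrees of freedom). The number of arrays, 1 per line and vector, limits the precision. Tested on simulated data with these arrays' means and spread (13956 genes, 10 runs), the line term recovered 14.0% of genes 2-fold apart, 87.4% at 4-fold and 98.2% at 8-fold, with 11.7 false calls per run on average. The simulated errors were drawn from the fitted model itself, without a spread between cultures. These figures therefore do not give the number of false calls among the genes called here.

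The members and the 42 gene lists (1468 entries, 1353 matched, 1198 above the filter) were chosen with earlier results of these data known. Named genes are those fixed by name, the 15 largest differences each way with the lines apart on all arrays, up to 4 members of each list with the largest 2-fold differences (or the 2 largest), defining markers, the 5 smallest p each way, genes with opposite 2-fold differences, and the ends and 3 largest members of each run. Further list members are named because they passed the line term, and genes of neighbouring pairs were chosen after their values were seen. Genes fixed by name that are not in the annotation used (Trp53, Ddx3y and H19) are not analysed here. Alternatives were another normalization, filter, probe set rule, fold, model and window; the closing section gives their effect. Gene order and promoters came from RefSeq tables of GRCm38.p6.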

Additional observations from a re-analysis of the deposited data

Results flagged for a closer look

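For 9 genes the lines were at least 2-fold apart in the Smarcb1-deficient state and at least 2-fold apart the other way on the Smarcb1 arrays. With 1 array for each line and vector, the difference between these 2 comparisons was not tested.

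In 5 of them line 365 was the higher line with the empty vector. Igfbp7, a secreted IGF-binding protein, read 5.35 and 9.85 in line 167 and 6.87 and 8.28 in line 365, with the empty vector first, so its difference was 1.52 in the deficient state and -1.56 with Smarcb1. The WNT modulator gene Sfrp2 read 6.02 and 9.30 in line 167 and 7.68 and 7.59 in line 365 (1.66 and -1.71). In both genes the line 167 Smarcb1 array was the highest of the 4. The same array was highest for the mTORC1 inhibitor gene Ddit4l (1.01 and -1.77), the receptor phosphatase gene Ptprk (1.66 and -1.04) and the smooth muscle actin gene Actg2 (1.05 and -1.27), whose line 167 empty vector value of 3.73 lay below the filter level.

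In the other 4, line 365 was the lower line with the empty vector. The actin regulator gene Cap2 read 7.46 and 7.06 in line 167 and 5.45 and 8.09 in line 365 (-2.01 and 1.03). Tm6sf1, a transmembrane protein gene, gave -1.0 and 2.01, and Ttc9, a tetratricopeptide repeat gene, -1.07 and 1.43. In these 3 the line 365 Smarcb1 array was the highest. The potassium channel gene Kcnh5 gave -1.54 and 1.29, with its highest value, 6.31, in line 167 with the empty vector. None of the 9 passed limma's line term (adjusted p 0.694 or higher), which averages the opposite differences.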

How the results depend on the processing

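The count of 784 genes at least 2-fold higher and 1010 lower moved by over 1.5 times only with the fold, to 1707 and 2303 at 1.5-fold and to 225 and 212 at 4-fold; another normalization, filter or probe set rule gave 667 to 820 and 833 to 1036. The line term's 741 higher and 787 lower genes became 1427 and 1488 at an adjusted p below 0.10 and 335 and 318 without the vector in the model, and lay between 571 and 956 and between 638 and 1024 otherwise. The 3 runs of neighbouring genes became 21 with windows of 25 genes and 1 with windows of 100. Differences of the 217 named genes compared moved by less than the moderated spread under both normalizations, and 4 of them (Pcdh9, Adgrl2, Igf2bp1 and Eed) moved by more when probe sets were averaged. Under the same settings 3 to 6 of their line terms newly passed and 0 lost their call. No 2-fold difference or called line term of these genes reversed under the normalizations and the probe set mean. Of 46 list medians, 21 moved with a filter at the 50th percentile and 3 without a filter.

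The labels carry no replicate numbers. The line term compares the lines within each vector, and the counts without the vector in the model are those of the unpaired fit. There is 1 array for each line and vector, so no array was left out. The spread between cultures of a line is unknown, and in simulated data the line term recovered 14.0% of genes 2-fold apart.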
